A study of Mus musculus with 12 samples.

Results

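The genes of the cytosolic ribosomal proteins were examined in BV2, an established line of mouse microglia. Members were the protein-coding rows of the deposited table whose symbol begins with Rpl, Rps, Rplp or Rpsa, without the S6 kinases, Rps19bp1, Rpl7l1 and symbols that carry "-ps". This gave 84 members among 24934 rows. The written pattern by itself finds 81, and Rplp0, Rplp1 and Rplp2 were taken in because the rule names them. There were 31 proteins of the small (40S) subunit, 43 of the large (60S) subunit, 3 of the 60S stalk, and 7 paralogs or retrogenes. The filter on low counts kept 83 of the 84 for testing and left out Rpl39l.

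The series holds 12 RNA sequencing libraries in 3 groups of 4. The labels give the Control cells no agent. The OGD group was deprived of oxygen and glucose and then re-oxygenated, which models ischemia in culture. The Acacetin group is labelled with 10 µM acacetin, a plant flavone, and its label does not name the deprivation; since the series text puts acacetin after deprivation, these cells are taken here as deprived and then treated. All 3 groups are the same line, no genotype is given, and neither the duration of deprivation nor whether each library is a culture of its own is stated, so p-values measure the spread between these samples, which may be technical. CPM are counts per library size, and in the results below they are given after scaling by edgeR's TMM factors. The CPM of the cell type markers in this paragraph were not scaled in that way. They are counts over all counted reads, 18S ribosomal RNA included. Of 12 microglial and macrophage markers, 10 were above a mean of 1 CPM, while C1qa and P2ry12 were below it. The summed level of these markers was 3352 to 4186 CPM in Control, 3363 to 3968 in OGD and 3551 to 3728 in Acacetin. Summed neuronal markers reached at most 5.84 CPM in any library, and the astrocyte, oligodendrocyte, fibroblast and endothelial lists were lower still.

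Each cytosolic ribosome joins a small subunit, which reads the mRNA codons, to a large subunit, which forms the peptide bonds. Nearly every ribosomal protein goes into each ribosome as a single copy, so the cell makes them in near equal numbers. Their mRNAs typically begin with a run of pyrimidines, the terminal oligopyrimidine (TOP) motif, through which mTORC1 and Larp1 govern their translation and stability. In microglia, as in other cells, making ribosomes is among the most costly uses of energy and nutrients.

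The starts of 10 genes are shown because they belong to members that the results below turn on or to paralogs set against them. Sequences come from the RefSeq promoter table (build GRCm38.p6, matched by symbol), which held 64 of the 84 members. Each line runs 5′ to 3′ on the gene's strand over 75 bases, 50 before the annotated start and 25 from it. Capitals mark every unbroken run of C or T of which at least 7 bases lie between 15 bases before and 25 bases after the start.
Rplp2 (chr7:141447601-141447675, plus strand): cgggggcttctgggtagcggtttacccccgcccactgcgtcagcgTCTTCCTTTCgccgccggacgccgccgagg
Rpl10a (chr17:28328421-28328495, plus strand): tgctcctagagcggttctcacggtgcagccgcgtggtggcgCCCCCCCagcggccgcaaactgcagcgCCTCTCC
Rpl39 (chrX:37085198-37085272, minus strand): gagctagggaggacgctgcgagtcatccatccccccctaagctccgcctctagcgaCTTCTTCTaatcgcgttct
Rpl28 (chr7:4792915-4792989, plus strand): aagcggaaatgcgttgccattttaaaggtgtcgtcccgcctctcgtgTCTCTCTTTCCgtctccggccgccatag
Rps27l (chr9:66946036-66946110, plus strand): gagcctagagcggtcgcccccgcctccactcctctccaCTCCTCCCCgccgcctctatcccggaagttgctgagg
Rps27 (chr3:90213624-90213698, minus strand): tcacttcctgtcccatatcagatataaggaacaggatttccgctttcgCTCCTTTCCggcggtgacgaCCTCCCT
Rpl14 (chr9:120571467-120571541, plus strand): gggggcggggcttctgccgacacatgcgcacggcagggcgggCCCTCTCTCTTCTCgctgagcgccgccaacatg
Rps25 (chr9:44407664-44407738, plus strand): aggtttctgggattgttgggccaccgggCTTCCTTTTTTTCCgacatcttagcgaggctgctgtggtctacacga
Rps6 (chr4:86857343-86857417, minus strand): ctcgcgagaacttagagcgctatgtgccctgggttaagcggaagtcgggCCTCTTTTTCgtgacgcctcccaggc
Rpl3l (chr17:24727776-24727850, plus strand): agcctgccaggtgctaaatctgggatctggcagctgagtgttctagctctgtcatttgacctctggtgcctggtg

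Such a run was found in 35 of the 64 matched members (54.7%) and in 23.5% of the 27025 promoters of the table. It was searched on the gene's strand only. Of the starts shown, 9 hold a run, and that of Rpl3l, the paralog of Rpl3 known from striated muscle, holds none. A run in this window need not begin at the annotated start. Those of Rps25 and Rps27l end before it, that of Rpl39 begins after it, and neither run of Rpl10a covers it. A run counted here is therefore not by itself a TOP motif. The 7 letters CCGGAAG, the core bound by ETS-family factors, stood on either strand within the 300-base promoters of 39.1% of the members and 9.12% of all promoters. The letters AAGATGGC, the core of the YY1 motif, were in 6.25% of the members and 2.88% of all promoters. A match is a string of letters and not a measured binding site.

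The family was very abundant, and its members differed widely in level per gene length. In the authors' deposited FPKM table, where counts are divided by gene length and library depth, the mean over the 12 libraries had a median of 853 FPKM over the 84 members, and 79 members were at 100 FPKM or above. The 5 highest were Rplp1 with 8826 FPKM, Rplp0 with 4247, Rpl8 with 4100, Rpl36 with 3518 and Rps15 with 3296. Rplp1 and Rplp0 belong to the stalk that recruits elongation factors, Rpl8 lies near the peptidyl transferase centre, Rpl36 is another large-subunit protein, and Rps15 is in the head of the small one. In Control alone, Rplp1 stood at 10841 ± 1127 FPKM and Rplp0 at 5132 ± 477 FPKM (SD, n = 4). Rplp0, Rpl8 and Rpl36, at ranks 2 to 4, had overlapping Control spreads: Rpl8 was at 4736 ± 400 FPKM and Rpl36 at 4509 ± 302.

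The low end of the family was mostly paralogs. Rpl22l1 stood at 34.1 FPKM, Rpl3l at 3.93, Rps23rg1, a retrogene of Rps23, at 0.583 and Rpl39l, a paralog known from testis, at 0.104. Rps27l and Rpl36al were the abundant paralogs, at 535 and 225 FPKM. The one canonical protein at the low end was Rps10, a 40S protein that is ubiquitinated when ribosomes collide, which was listed at 1.84 FPKM. Rps10 had 3.62 to 6.39 CPM in the 12 libraries, and how reads shared with similar or overlapping genes were assigned is not given in the sources used here. Retrocopies and near-identical paralogs are a general limit of this family: rows typed as its pseudogenes held 0.243% to 0.289% of the number of reads of the members.

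**Figure D1:**
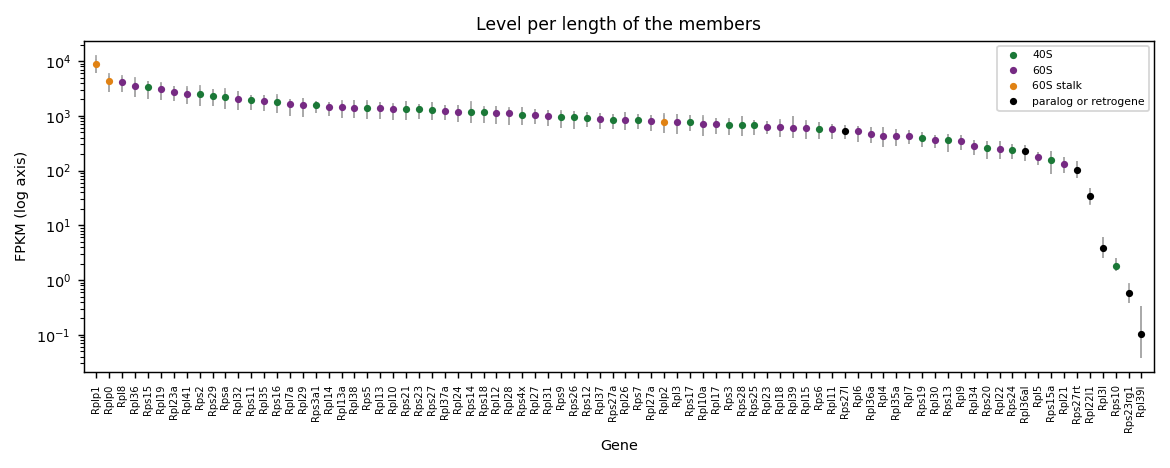
Mean FPKM of 82 of the 84 members over the 12 libraries, on a log axis, ordered from highest to lowest and coloured by class; grey lines run from the lowest to the highest library. Rplp1 leads at 8826 FPKM, and 4 of the 5 members below 100 FPKM are paralogs or retrogenes, with Rps10 the exception.

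Library depth ran from 16427886 to 32693066 counted reads, and the members took between 14.4% and 21.8% of them. Counting error alone leaves each such share within 0.0198 percentage points (95% Wilson interval). The share of 18S ribosomal RNA was 13.1% in OGD 2 and 21.3% in OGD 3, against 0.137% to 1.86% in the other 10 libraries. With 18S reads left out, the members' share was 21.5 ± 0.777% in Control, 17.6 ± 1.72% in OGD and 17.4 ± 2.10% in Acacetin (SD, n = 4). The Control libraries gave 21.7%, 22.2%, 21.6% and 20.4%. The OGD libraries gave 18.2%, 18.9%, 18.3% and 15.1%, all under the lowest Control library. Acacetin 1 gave 20.4%, just under the lowest Control library, and Acacetin 2, 3 and 4 gave 17.0%, 15.5% and 16.5%. In bulk RNA a smaller share cannot be told apart from a larger share of other transcripts.

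The members' own levels gave a partly different order of libraries. The median over the 83 tested members of log2 CPM, relative to the mean of Control, was 0.02, 0.10, 0.05 and -0.18 in Control 1 to 4. It was -0.21, -0.06, -0.19 and -0.85 in OGD 1 to 4, and 0.14, -0.40, -0.86 and -0.65 in Acacetin 1 to 4. OGD 4, Acacetin 3 and Acacetin 4 were the lowest, with 83, 83 and 82 of the 83 members below the Control mean, and in Acacetin 1 only 9 members were below it. A trend with gene length moved with these values. The slope of each library's log2 CPM on log2 gene length, relative to the mean of all libraries, was -0.063, -0.050, -0.092 and 0.066 in Control, -0.039, -0.149, -0.083 and 0.172 in OGD, and -0.213, 0.030, 0.296 and 0.125 in Acacetin. The 3 libraries with the highest slopes had the 3 lowest member medians, the library with the lowest slope had the highest median, and the median member is 0.444 times as long as the median tested gene. The part of this trend in the members' levels was addressed by a fit with the trend removed, given below; with it removed, the library medians were 0.01, 0.08, 0.02 and -0.11 in Control, -0.24, -0.14, -0.21 and -0.57 in OGD, and -0.01, -0.32, -0.47 and -0.45 in Acacetin.

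**Figure D2:**
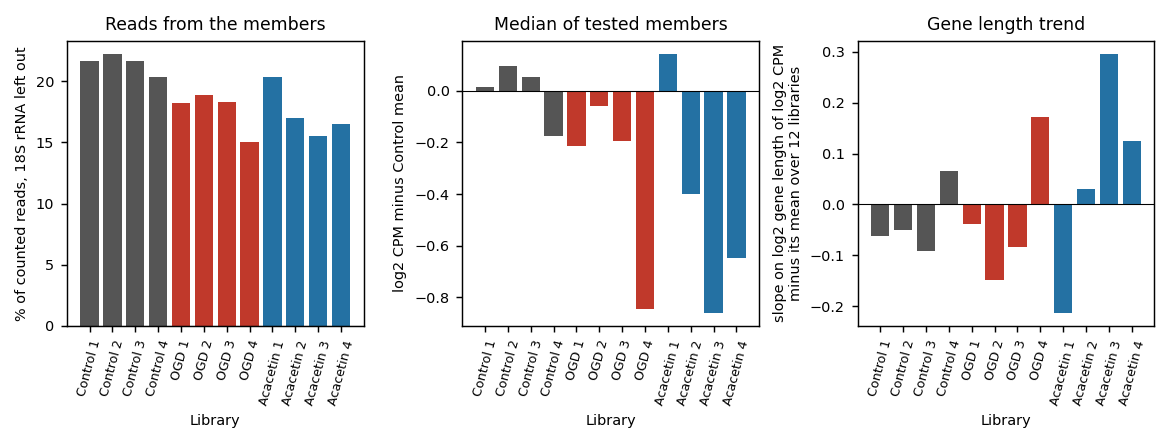
Bars show, for each of the 12 libraries, the percent of counted reads from the 84 members with 18S rRNA left out, the median over 83 tested members of log2 CPM minus the Control mean, and the slope on log2 gene length of log2 CPM minus its mean over the libraries. OGD 4, Acacetin 3 and Acacetin 4 have the lowest member medians (-0.85, -0.86 and -0.65) and the highest length slopes (0.172, 0.296 and 0.125), and Acacetin 1 has the highest median (0.14) and the lowest slope (-0.213).

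OGD against Control asks what deprivation and re-oxygenation did to the transcripts of the ribosome. The members leaned lower together but none passed the test: at an adjusted p under 0.05 in edgeR's quasi-likelihood test, 0 of 83 members were called, and 28.8% of all 13249 tested genes. The log2 fold change was below 0 for 81 of the 83, with a median of -0.30 beside 0.03 over all tested genes. At an unadjusted p under 0.05 there were 6 members, all lower, and the smallest adjusted p was 0.0700. In 20 members every OGD library was below every Control library, against 17% of all tested genes in that direction. The small subunit (median -0.31, range -0.65 to 0.00), the large subunit (median -0.29, range -0.53 to -0.01) and the stalk (median -0.39) had like values. The 6 tested paralogs and retrogenes had a median of -0.05 and ran from -0.51 to 0.61.

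The lowest member in this comparison was Rps14, a 40S protein whose loss of 1 copy underlies the anemia of a myelodysplastic syndrome. Its level was 5369, 4415, 4392 and 3864 CPM in Control, 3116, 3080, 3203 and 2120 in OGD, and 4430, 2643, 1818 and 2384 in Acacetin. All OGD libraries were below all Control libraries, OGD 4 was lowest of its group, and Acacetin 1 was inside the Control range. The log2 fold change of OGD against Control was -0.65 ± 0.25 (SE, adjusted p = 0.0700).

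Rplp2, a stalk protein that forms a dimer with Rplp1, came next. It had 2800, 2532, 2290 and 2249 CPM in Control, 1693, 1853, 1816 and 1337 in OGD, and 2460, 1618, 1107 and 1413 in Acacetin. OGD and Control did not overlap, and the log2 fold change was -0.56 ± 0.22 (adjusted p = 0.0745). The other stalk proteins had higher and more scattered values. For Rplp1 the log2 fold change was -0.39 ± 0.25 (adjusted p = 0.272), without overlap, and for Rplp0, the stalk base, it was -0.34 ± 0.25 (adjusted p = 0.343), with overlap.

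The 60S proteins Rpl36 and Rpl10a completed the low end. Rpl36 had 2320, 2100, 1995 and 1737 CPM in Control, and 1492, 1586, 1550 and 1021 in OGD, a log2 fold change of -0.53 ± 0.24 (adjusted p = 0.110). Rpl10a, part of the flexible L1 stalk, had 2988, 2555, 2676 and 2397 CPM in Control and 1993, 2125, 1942 and 1298 in OGD, with the same log2 fold change of -0.53 ± 0.24 (adjusted p = 0.112). Neither gene's groups overlapped. Rpsa, the 40S protein also known as the laminin receptor precursor, was at -0.49 ± 0.26 (adjusted p = 0.178), also without overlap.

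At the high end, Rpl3l had 6.59, 7.30, 7.10 and 4.88 CPM in Control, and 10.9, 10.9, 11.4 and 6.14 in OGD. OGD 1, 2 and 3 were above all Control libraries and OGD 4 was not. The log2 fold change was 0.61 ± 0.31 (adjusted p = 0.162), and these are few reads beside Rpl3 itself, which stood at 3463, 3822, 3821 and 3500 CPM in Control. Rps3a1, Rps27l and Rpl5 had values near 0, at 0.00 ± 0.21, -0.01 ± 0.22 and -0.01 ± 0.18, and the sign of each turned under some of the alternatives. Rpl5 and Rpl11 bind Mdm2 together with 5S rRNA when ribosome assembly fails, and Rpl11 was at -0.22 ± 0.23 (adjusted p = 0.512). Rps6, the S6 kinase substrate, was at -0.24 ± 0.20 (adjusted p = 0.393).

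**Figure D3:**
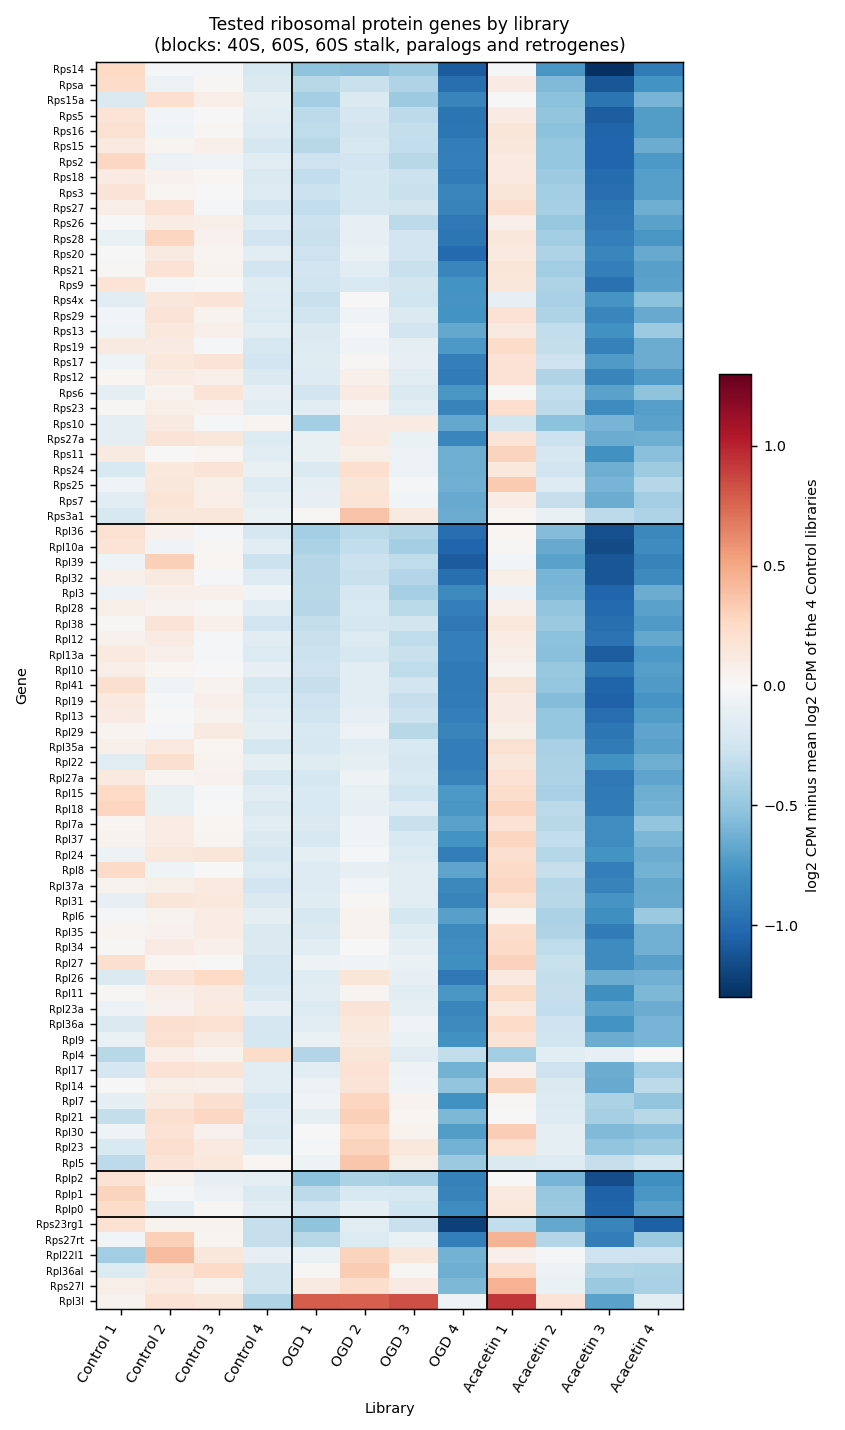
Heat map of log2 CPM minus the mean of the 4 Control libraries for 81 of the 83 tested members (rows, in blocks of 40S, 60S, 60S stalk, and paralogs and retrogenes) in the 12 libraries (columns). The columns of OGD 4, Acacetin 3 and Acacetin 4 are low throughout (medians -0.85, -0.86 and -0.65), the column of Acacetin 1 is at or above Control (median 0.14), and Rpl3l in the last row is high in OGD 1, 2 and 3.

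The number of members called differed between fits. With the length trend removed, 18 members were called lower and 1 higher (Rpl3l, 0.63 ± 0.22, adjusted p = 0.0400), where 33.5% of all genes were called. In that fit Rplp2 was at -0.56 ± 0.14 (adjusted p = 0.00660) and Rps14 at -0.67 ± 0.17 (adjusted p = 0.00908), fold changes like those above with a smaller SE. On the authors' FPKM values, tested by limma as log2(FPKM + 1), 58 members were called lower, where 22% of all genes were called, and the median of the members was -0.46. That fit differs from the reported one in unit, scaling and test at once. With OGD 4 left out of the edgeR fit, 0 members were called and the median was -0.17.

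Paralog pairs can be read side by side, since a pair shares its libraries. Rps27l, known as a p53 target, had 558, 580, 546 and 449 CPM in Control and 577, 622, 572 and 354 in OGD, with overlap. Rps27, its canonical partner, had 2003, 2138, 1852 and 1586 CPM in Control and 1513, 1620, 1595 and 1035 in OGD, a log2 fold change of -0.40 ± 0.23 (adjusted p = 0.232). Rpl22l1 was at -0.06 ± 0.20 beside -0.32 ± 0.22 for Rpl22, Rpl36al at -0.04 ± 0.21 beside -0.20 ± 0.24 for Rpl36a, and Rpl3l at 0.61 ± 0.31 beside -0.44 ± 0.21 for Rpl3. In these 4 pairs the paralog had the higher log2 fold change, while Rps23rg1, at -0.51 ± 0.28, was lower than Rps23, at -0.24 ± 0.24. The retrogene Rps27rt and Rps27 had like values in the fit scaled to the members' median, described below (-0.07 ± 0.12 and -0.09 ± 0.06). The difference within a pair was not tested. Rpl39 was at -0.50 ± 0.24 (adjusted p = 0.142), and its partner Rpl39l had at most 0.317 CPM in any library. Rps4x, on the X chromosome, was at -0.31 ± 0.20 (adjusted p = 0.262).

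Acacetin against OGD asks whether the compound moved these genes after deprivation. No member was called, and 0 members had an unadjusted p under 0.05. Over all 13249 tested genes edgeR called 0 (0%), with 685 at an unadjusted p under 0.05, and DESeq2 called 0 members and 0.285% of all genes. The log2 fold change was below 0 for 81 of the 83 members with a median of -0.09, beside -0.02 over all genes. This sign did not hold in every fit: the median was 0.18 on log2(FPKM + 1), where that of all genes was 0.16, 0.15 without OGD 2 and OGD 3, and 0.05 without Acacetin 3. The lowest values were those of Rpl3l (-0.45 ± 0.31), Rps10 (-0.32 ± 0.22), Rpl5 (-0.23 ± 0.18) and Rps3a1 (-0.20 ± 0.21). The highest were those of the retrogene Rps27rt (0.11 ± 0.25) and of Rps27, Rps15a and Rpl4, which were at 0.00 ± 0.23, -0.01 ± 0.21 and -0.01 ± 0.18. For Rps14 and Rplp2 the Acacetin libraries lay on both sides of the OGD range, and the differences, -0.03 ± 0.25 and -0.02 ± 0.22, were smaller than their SE.

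Acacetin against Control shares its Control libraries with the first comparison and is not independent of it. No member was called, where 26.9% of all genes were. The log2 fold change was below 0 for 82 of 83 members, with a median of -0.38 beside 0.08 over all genes, and 13 members had an unadjusted p under 0.05, all lower. Groups did not overlap in 2 members, Rps10 and Rps23rg1, both lower, against 13.5% of all genes in that direction. The lowest members at 2 CPM or above were Rps14 (-0.68 ± 0.25, adjusted p = 0.0606), Rpl39 (-0.64 ± 0.24, adjusted p = 0.0652), Rpl10a (-0.60 ± 0.24, adjusted p = 0.0768) and Rplp2 (-0.58 ± 0.22, adjusted p = 0.0662). The highest were Rpl3l (0.16 ± 0.31), Rps27l (-0.09 ± 0.22), Rpl36al (-0.15 ± 0.21) and Rpl22l1 (-0.15 ± 0.20).

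The count of called members in this comparison changed most when Acacetin 1 was left out, and it also differed between fits that kept all libraries. Rpl39, which lines the peptide exit tunnel, had 1268, 1626, 1338 and 1084 CPM in Control and 1283, 813, 609 and 718 in Acacetin, so that Acacetin 1 lay inside the Control range and the other Acacetin libraries below it. Without Acacetin 1, edgeR called 62 of the 83 members, all lower, where it called 43.1% of 13499 genes, and the median was -0.62. In that fit Rps14 was at -0.98 ± 0.20 (adjusted p = 0.00150). Acacetin 1 also had the lowest length slope of all libraries (-0.213), and the part of that slope in the count without it was not tested. With the length trend removed and all libraries kept, 19 members were called lower and 0 higher, where 31.6% of all genes were called.

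**Figure D4:**
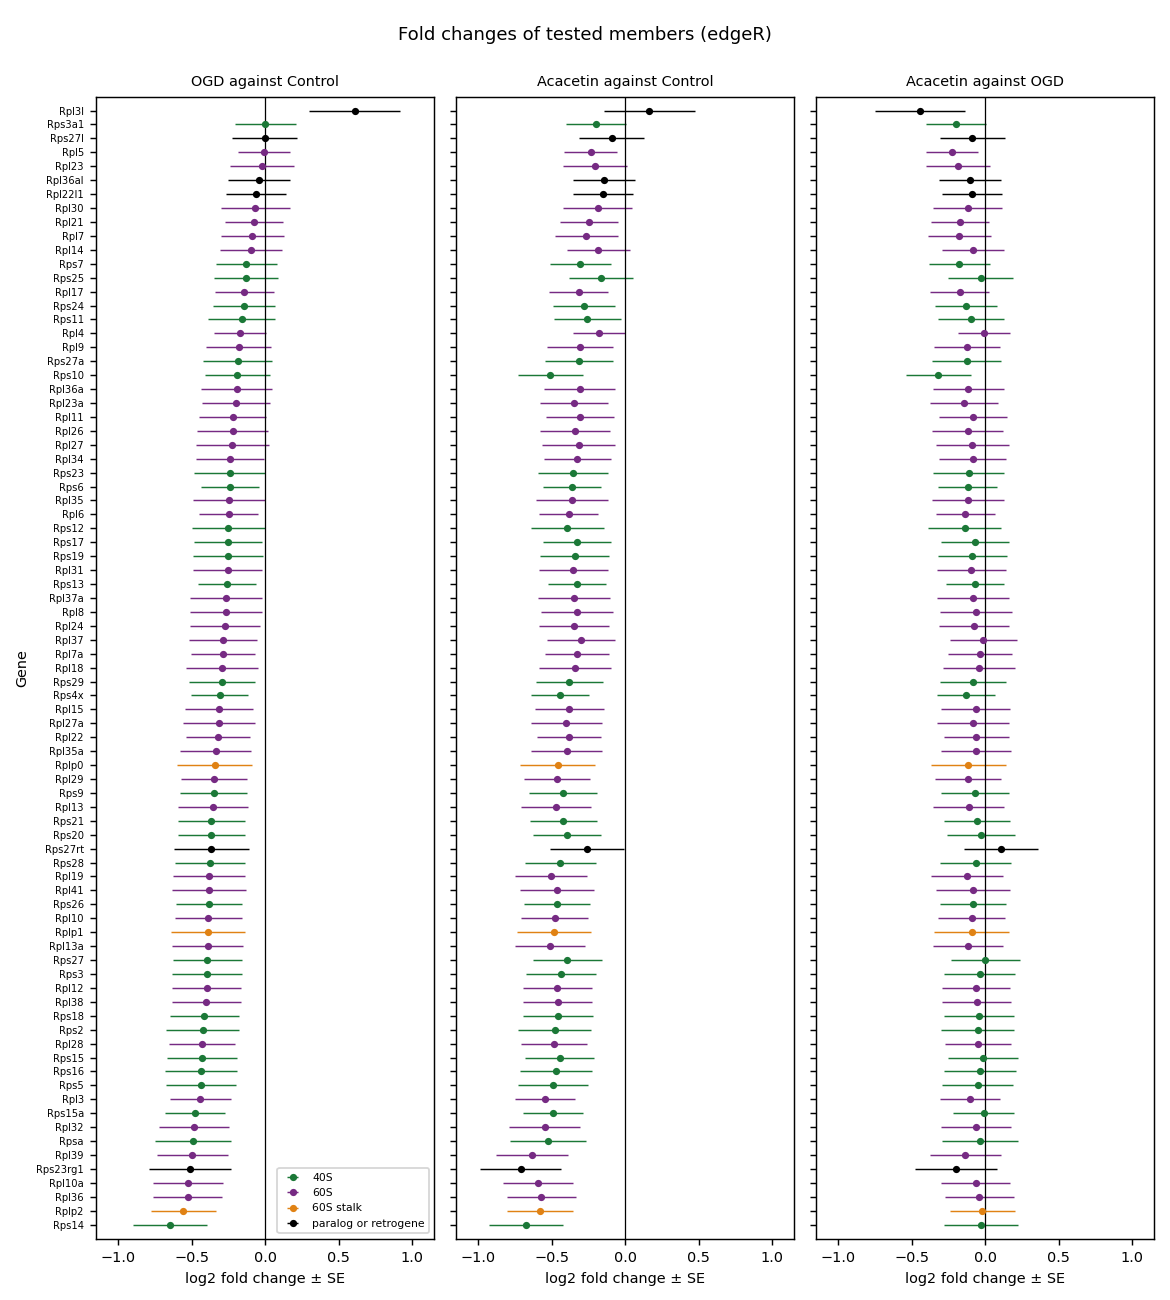
Log2 fold change (points) and SE (lines) of 81 of the 83 tested members from edgeR for OGD against Control, Acacetin against Control and Acacetin against OGD, coloured by class and ordered by the first panel. Over all 83 members, values lie below 0 for 81, 82 and 81, with medians of -0.30, -0.38 and -0.09, and none passed an adjusted p of 0.05.

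Much of the spread between libraries was shared by the members. Each library's median member level was taken off its log2 CPM, a step added after the values had been seen. The median SD of a member within its group (log2, n = 4) then went from 0.16 to 0.10 in Control. In OGD it went from 0.34 to 0.07 and in Acacetin from 0.45 to 0.08. The SD was smaller for 73, 82 and 77 of the 83 members. Taking off a library's own member median removes any shift that the members share. No other set of genes was treated in this way, so whether the shift is particular to the family was not tested. Fold changes relative to the family come from an edgeR fit, also added after the values had been seen. It scales libraries in another way, by the members' median deviation from their own means. Its fold changes therefore need not equal differences between the relative levels. Neither scaling can show a change of the family as a whole. The fit puts the median of all tested genes at 0.38 in OGD and 0.55 in Acacetin against Control, so the values below are relative to the family. Rpl11 tracked the family closely, with a relative SD of 0.04, 0.02 and 0.03 in the 3 groups. Rpl4, at the exit tunnel, followed it loosely, with 0.31, 0.29 and 0.60.

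Relative to the family, 7 members were higher and 7 lower in OGD than in Control, where edgeR called 29.9% of all genes. The higher ones included Rps27l, Rpl3l, Rpl14, Rps25, Rpl30 and Rpl23, and the lower ones included Rps14, Rpl32, Rpl10a, Rpl36, Rplp2 and Rpl28. Rps27l had a log2 level relative to the family median of -1.99, -2.04, -2.07 and -2.13 in Control, -1.77, -1.87, -1.78 and -1.83 in OGD, and -1.75, -1.79, -1.73 and -1.84 in Acacetin. Every OGD and every Acacetin library was above every Control library. In the scaled fit the log2 fold change of OGD against Control was 0.29 ± 0.06 (adjusted p = 0.00306).

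Rps14 had the lowest fold change of the 83 members in this fit. Its relative level was 1.28, 0.89, 0.93 and 0.97 in Control, 0.67, 0.44, 0.70 and 0.75 in OGD, and 0.86, 0.62, 0.53 and 0.75 in Acacetin. Control 1 stood above the other Control libraries, and no OGD or Acacetin library reached the lowest Control value. In the scaled fit the log2 fold change of OGD against Control was -0.34 ± 0.09 (adjusted p = 0.00970). Rpl36 (-0.23 ± 0.06, adjusted p = 0.0177) and Rpl10a (-0.24 ± 0.06, adjusted p = 0.0138) were without overlap too, while Rplp2 (-0.25 ± 0.08, adjusted p = 0.0370) overlapped.

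Among the higher members, Rpl14, a 60S protein, had a relative level of 0.48, 0.44, 0.49 and 0.49 in Control, 0.57, 0.61, 0.60 and 0.78 in OGD, and 0.62, 0.65, 0.63 and 0.78 in Acacetin. Both other groups lay above Control without overlap, and the log2 fold change of OGD in the scaled fit was 0.20 ± 0.05 (adjusted p = 0.0146). Rps25, which is needed for initiation at several viral internal entry sites, was 0.16 ± 0.05 higher in OGD (adjusted p = 0.0287). Rpl3l, at far fewer reads, was 0.90 ± 0.19 higher (adjusted p = 0.00445).

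Acacetin against Control in the same fit, which shares the Control libraries, gave 5 members higher and 8 lower, where 33.9% of all genes were called. Rps27l (0.29 ± 0.06, adjusted p = 0.00314), Rps25 (0.22 ± 0.05, adjusted p = 0.00599), Rpl14 (0.21 ± 0.05, adjusted p = 0.0138) and Rpl30 were among the higher. Rps14 (-0.32 ± 0.09, adjusted p = 0.0135), Rpl32, Rpl10a, Rpl39, Rpl36, Rpl19 and Rpl13a were among the lower. Acacetin against OGD gave 0 called members in this fit too, with Rps27l at 0.00 ± 0.06 and Rps14 at 0.02 ± 0.09. Of the starts printed above, a pyrimidine run is present in members that were relatively lower (Rplp2, Rpl10a, Rpl28, Rpl39). It is also present in members that were relatively higher (Rps27l, Rpl14, Rps25), while Rpl3l, relatively higher in OGD, has none. No run was found either for Rpl23, relatively higher in OGD, or for Rpl19, relatively lower in Acacetin, whose starts are not printed. Rps14, Rpl32 and Rpl36 were not among the matched members, and a link between runs and direction was not tested.

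**Figure D5:**
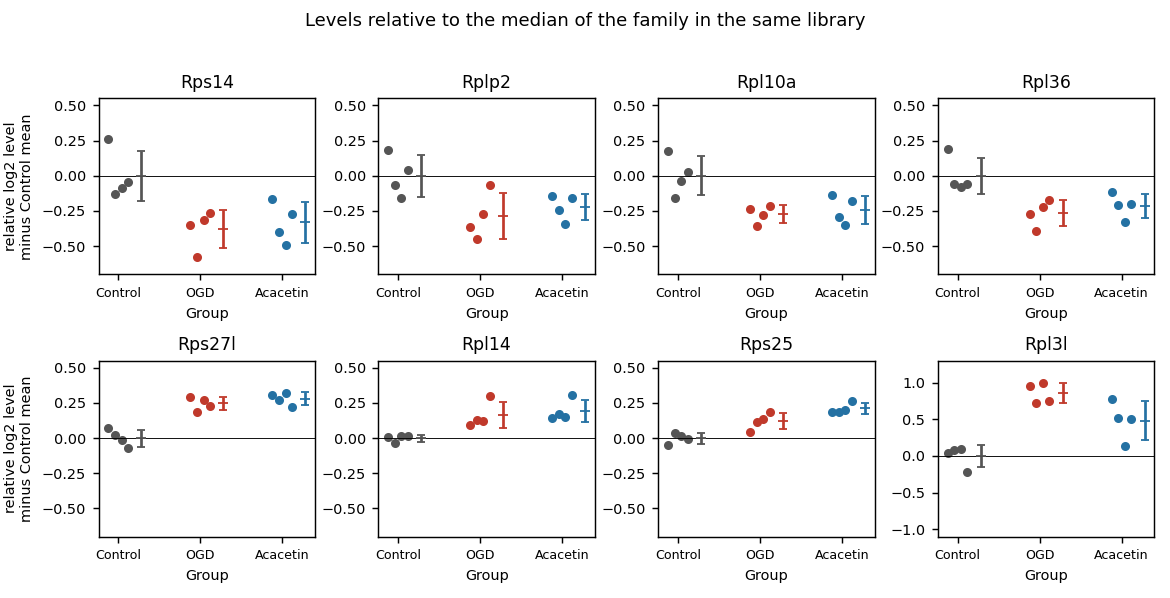
Log2 level relative to the median of the family in the same library, minus the Control mean, for 8 members; points are the 4 libraries of each group in label order, and bars are the mean ± SD. Rps14, Rpl10a and Rpl36 lie below Control in every OGD library, Rps27l, Rpl14 and Rps25 lie above it, and Rpl3l, on a wider axis, is highest in OGD.

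Genes that act on or beside the ribosomal proteins were taken from 6 lists written from general knowledge. The closest to the members are ribosome constituents with other names, Fau and Rack1 among them: 0 of 3 were called in any of the 3 comparisons, and their median in OGD against Control was -0.39. Fau, which encodes a ubiquitin-like protein fused to a small-subunit protein, was at -0.33 ± 0.24 (adjusted p = 0.331), and Rack1, a scaffold on the 40S head, at -0.39 ± 0.25 (adjusted p = 0.268). Of 15 elongation factors and other TOP mRNAs, 2 fell and 0 rose in OGD against Control, a smaller share than the 28.8% called among all genes. Eif3f, an initiation factor subunit, was at 632 ± 75 CPM in Control and 401 ± 39.3 in OGD (SD, n = 4; -0.66 ± 0.19 on the log2 scale, adjusted p = 0.0202), and Eef2, the translocation factor, from 4691 ± 477 to 3017 ± 347 CPM (-0.64 ± 0.21, adjusted p = 0.0386).

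Of 9 chaperones or assembly factors of ribosomal proteins, 5 rose, 0 fell and 4 were not called in OGD against Control, where 28.8% of all genes were called. The median was 0.90, and the difference from the other lists was not tested. Rrs1, which brings Rpl5, Rpl11 and 5S rRNA into the pre-ribosome, stood at 46.0 ± 3.20 CPM in Control and 111 ± 8.33 in OGD, a log2 fold change of 1.27 ± 0.13 (adjusted p = 5.98e-05). Tsr2, the chaperone of Rps26, rose by 1.74 ± 0.20 (adjusted p = 9.24e-05), and Grwd1, the chaperone of Rpl3, by 1.39 ± 0.23 (adjusted p = 0.000720). Heatr3 and Bccip were the other 2. Of the clients named here, Rps26, Rpl3, Rpl5 and Rpl11, none was called in the same fit, like the members as a whole. With the length trend removed, Rps26 (-0.36 ± 0.12, adjusted p = 0.0355) and Rpl3 (-0.51 ± 0.15, adjusted p = 0.0185) were called lower, where 33.5% of all genes were called. Rpl5 and Rpl11 were not called there. In the main fit of Acacetin against Control, which shares the Control libraries, 5 of the 9 were again higher, where 26.9% of all genes were called. In Acacetin against OGD 0 of the 9 were called.

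Of 16 genes of mTORC1 and TOP control, 2 rose and 2 fell in OGD against Control, a share near the 28.8% called among all genes. Mlst8, a core subunit of the kinase complex, rose from 7.73 ± 0.861 to 19.4 ± 3.03 CPM (1.33 ± 0.18, adjusted p = 0.000220) and Akt1s1, an inhibitor within it, by 0.79 ± 0.21 (adjusted p = 0.0131). Ddit4, an inhibitor of the pathway under hypoxia, fell by 1.51 (SE 0.34, adjusted p = 0.00469), and Pdcd4, a translation inhibitor that S6 kinase marks for degradation, fell by 1.56 (SE 0.38, adjusted p = 0.00784). Among 10 matched genes of ribosome stalling and quality control, 1 rose (Usp10, 0.71 ± 0.14, adjusted p = 0.00204) and 2 fell. Gtpbp2, a partner of the splitting factor Pelo, went from 70.4 ± 13.4 to 20.4 ± 4.14 CPM (-1.78 ± 0.18, adjusted p = 4.80e-05), and Ascc2 was the other. Of the 4 genes that link free ribosomal proteins to p53, Trp53 rose by 0.66 ± 0.17 (adjusted p = 0.0109) and Mdm2, Mdm4 and Cdkn1a were not called. In Acacetin against OGD, 0 genes of any of the 6 lists were called.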

How the data were processed

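Total RNA of BV2 cells was taken up in TRIzol and made into stranded mRNA libraries, per the labels' protocols. Tools named in the submitters' processing notes are bcl2fastq, HISAT2 and DESeq2, with no version, and the build is GRCm39; counter, annotation and strand setting are not given in the sources used here. One deposited table holds unscaled read counts for each gene, and the authors' deposited FPKM table holds the same genes per length and library depth. All 12 columns of both matched a library by title, with 0 unmatched. Libraries were compared for copies: pairs correlated at 0.905 to 0.991 over tested genes (log2 CPM), and none held identical values.

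Counts were tested with edgeR 4.0.16 (R 4.3.3; TMM scaling, filterByExpr with a minimum count of 10 and a total of 15, quasi-likelihood fit of all 12 libraries with a mean per group), two-sided, with Benjamini-Hochberg adjustment over all 13249 tested genes within a comparison, and called at an adjusted p under 0.05. Log2 CPM used a prior count of 2. The members and lists were chosen with earlier results of these data known. Members are named when they are among the 4 highest or 4 lowest per comparison with at least 2 CPM, the 5 highest in FPKM, in a paralog pair, untested, or one of Rplp0, Rplp1, Rplp2, Rpsa, Rpl5, Rpl11 and Rps6; others were named after their values were seen. For a list of other genes the member with the smallest p is named, and further genes of the lists were named after their values were seen. Gene length came from the ratio of counts to FPKM and is known up to 1 common factor.

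Alternatives were the Wald test of DESeq2 1.42.0, DESeq2 size factors in edgeR, no filter, a mean of 1 CPM, 8 libraries, the replicate block, limma 3.58.1 on log2 FPKM with 1 or 0.1 added, a lowess length trend (span 0.5) removed, libraries left out, and members defined otherwise. Scaling to the members' median was added after seeing the data, as was a promoter window of 20 bases on each side, which found a pyrimidine run in 56.2% of members and 24.2% of promoters. On simulated counts for OGD against Control (13146 genes), edgeR recovered 100% of 100 genes changed by 1 log2 unit and 100% of 100 changed by 2, with 14 false calls. Recovery of changes as small as the members' median in that comparison (-0.30) was not tested. Intervals cover counting error only, since PCR copies were not marked by molecular identifiers. A few genes are not reported here by name and are left out of the figures, but remain in every count and fit.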

Additional observations from a re-analysis of the deposited data

Results flagged for a closer look

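In 6 members the level in OGD 4 stood far from the other OGD libraries, by a gap that takes up nearly all of the group's range (Dixon's 95% criterion). Rpl8 was at 4697 CPM in OGD 4 and 6701 to 6988 in the other OGD libraries, and Rps14 at 2120 beside 3080 to 3203. Rpl36 was at 1021 CPM beside 1492 to 1586, Rpl39 at 622 beside 1019 to 1080, Rpl22 at 540 beside 866 to 926, and Rpl3l at 6.14 beside 10.9 to 11.4. The share of all counted reads from the members was 20.3% in Control 4 and 21.6% to 21.8% in the other Control libraries. These came from 93 groups of 4 libraries examined over 31 results; chance flags about 1 in 20 groups, and members share their libraries. OGD 4 and Control 4 also had the highest length slope of their groups, 0.172 and 0.066, whose part here was not tested.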

How the results depend on the processing

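The median of the members was below 0 in every setting for which it was computed, both for OGD against Control (-0.50 to -0.17) and for Acacetin against Control (-0.62 to -0.25). It was not computed for the fit scaled to the members' median, which removes a shared shift. For Acacetin against OGD it was -0.09 and turned to 0.18 on log2(FPKM + 1) or log2(FPKM + 0.1), 0.15 without OGD 2 and OGD 3, and 0.01 to 0.05 without OGD 2 or Acacetin 3 alone. No alternative called a member in Acacetin against OGD.

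Members called in OGD against Control, 0 as reported, of 83 (with the share called over all genes), were 7 with DESeq2 (33.3%), 2 with its size factors (29.8%), 2 with no filter (14.3%), 10 with only the 8 libraries compared (38%), 58 on log2(FPKM + 1) (22%), 30 on log2(FPKM + 0.1) (20.3%), 19 with the length trend removed (33.5%), 15 without Acacetin 1 and Acacetin 3 (37.2%), and 14 (29.9%) scaled to the members' median. Leaving out 1 library gave 0 to 9, with 9 without Acacetin 1 (35%), 2 without Control 4 (23.9%) and 2 without Acacetin 3 (32.4%). In Acacetin against Control, 0 as reported, they were 12 with DESeq2 (33.3%), 3 with its size factors (28.2%), 3 with no filter (14%), 10 on log2(FPKM + 1) (18.8%), 2 on log2(FPKM + 0.1) (17.1%), 19 with the length trend removed (31.6%), 28 without Acacetin 1 and Acacetin 3 (28.9%), and 13 (33.9%) scaled to the members' median. Leaving out 1 library gave 0 to 62, with 62 without Acacetin 1 (43.1%), 2 without OGD 4 (27.7%) and 1 without Control 4 (22.4%). The cause was not tested.

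With the replicate number as a block, 3 members were called in OGD against Control, 0 in Acacetin against OGD and 8 in Acacetin against Control, beside 34.5%, 0.0151% and 32.3% of all genes. Same-numbered libraries correlated at 0.07 to 0.51, -0.12 to 0.38 and -0.29 to 0.40, and correlated best with their own number in 5, 3 and 3 of 8. These values do not settle whether the numbers pair the libraries.

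Of 24 named values, 9 passed the threshold in some alternative, and 13 turned sign in some alternative. In OGD against Control, Rps3a1 was at -0.036 with DESeq2 and with its size factors, -0.024 with no filter, -0.0090 at a mean of 1 CPM, -0.034 with the replicate block, -0.19 on both FPKM scales, -0.29 without OGD 2 and OGD 3, and -0.14 to 0.17 leaving out 1 library. Rps27l was at 0.10 with the length trend removed and -0.11 to 0.15 leaving out 1 library, and Rpl5 at -0.15 to 0.12. In Acacetin against OGD, log2(FPKM + 1) and log2(FPKM + 0.1) gave 0.10 and 0.10 for Rpl5, 0.13 and 0.13 for Rps3a1, 0.26 and 0.26 for Rps15a, and 0.29 and 0.29 for Rpl4. Without OGD 2 and OGD 3, Rps10 was at 0.086, Rpl5 at 0.088, Rps3a1 at 0.14, Rps15a at 0.19 and Rpl4 at 0.24. DESeq2, its size factors, no filter and the 8 libraries gave 0.018, 0.018, 0.019 and 0.037 for Rps15a and 0.033, 0.033, 0.043 and 0.058 for Rpl4. Rpl4 was at 0.11 with the length trend removed. Without Acacetin 1 and Acacetin 3, Rpl4 was at 0.088, Rps27 at -0.14 and Rps27rt at -0.073, and Rps27 was at -0.027 with the replicate block. Leaving out 1 library gave -0.21 to 0.12 for Rps15a, -0.078 to 0.11 for Rpl4, -0.27 to 0.15 for Rps27 and -0.22 to 0.27 for Rps27rt. In Acacetin against Control, the FPKM scales gave 0.013 and 0.014 for Rpl22l1 and 0.0027 for Rps27l, the length trend 0.084 for Rps27l, and leaving out 1 library -0.33 to 0.020 for Rps27l and -0.20 to 0.37 for Rpl3l.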
